A study of Caenorhabditis elegans with 27 samples.

Results

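The left end of the X chromosome of Caenorhabditis elegans, from the first base to a gene start below 2000000, holds 323 of the 20390 genes listed in the deposited expression files. Of these, 230 reached at least 1 TPM (a transcript abundance scaled for gene length and library depth) in at least 2 of the 27 libraries and were tested, beside 1997 genes of the rest of X, 12044 autosomal genes and 14271 genes in all. The tested share was 71.2% at the left end, 80.0% over the rest of X and 68.6% on the autosomes. Of the 93 genes left out, 21 were at 0 in every library, 17 reached the minimum in 1 library, and none exceeded 3.30 TPM. The last members before the boundary were meg-3, which codes for a P granule protein (start 1986196), and Y40A1A.3 (start 1995569). The first tested genes beyond it were Y102A11A.9 (start 2014135) and Y102A11A.3 (start 2019164). Coordinates are those listed in the deposited files, for which no genome build was stated in the sources used here.

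RNA came from whole worms of 4 strains. CA1200 is the control with no tagged target. AM05 carries top-1::degron::GFP, SS01A carries top-2::degron::GFP and AM01 carries dpy-27::degron::GFP, and each is named below after its tagged protein as the TOP-1 strain, the TOP-2 strain or the DPY-27 strain. Larvae at L2/L3 were put on plates with 1 mM auxin for 30, 60 or 120 min or kept without it, the DPY-27 strain only without auxin or for 120 min. This made 14 groups of 2 libraries, apart from a single library for CA1200 at 60 min. Replicate 2 of the DPY-27 strain was mixed-stage larvae, and a term for this stage was part of every fit. In the auxin system, the plant F-box protein TIR1 marks degron-tagged proteins for destruction when auxin is present. The files measure RNA, so the loss of the tagged proteins was not measured here.

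Topoisomerases I and II relax the supercoils that polymerases and loop-forming complexes create in DNA. DPY-27 is a subunit of condensin DC, which loads onto both X chromosomes of hermaphrodites, spreads along them and lowers their expression to match the single X of males. The left end of X also holds the X pairing centre, which the zinc finger protein HIM-8 binds in meiosis. The question addressed was whether genes at this end of X respond to loss of the topoisomerases and of condensin DC as genes elsewhere on X do.

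Among the members, 206 are annotated as protein coding, 12 as pseudogenes and 2 as lincRNAs, and 10 matched no annotation entry. Their median genomic span was 2680.5 bp, against 2853 bp over the rest of X and 2338 bp on the autosomes, and 20 of them (8.70%) belonged to the longest 10% of all tested genes. Their median level was 4.76 scaled TPM, below the 7.96 of the rest of X and the 8.17 of the autosomes. Only 3 members averaged 100 scaled TPM or more, 40 averaged below 1, and 127 reached 1 TPM in every library. The most abundant were the pseudogene Y73B3A.18 with a mean of 455 scaled TPM, trap-2, a subunit of the endoplasmic reticulum translocon complex, with 418, and H42K12.3 with 179. They were followed by aagr-4, F56C3.8, the profilin gene pfn-3, the intermediate filament gene ifc-2, the bZIP gene cebp-1, the stomatin gene unc-1 and the eIF4E gene ife-2. Y73B3A.18 overlaps Y73B3A.20 on the same strand, and 18 members in all overlap another listed gene, so that their reads may not be cleanly separated.

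Depth was estimated at 5.50 to 19.95 M fragments per library (M, 1000000). The 4 libraries of TOP-2 replicate 1 and the 2 of DPY-27 replicate 1 stood apart from the other 21. They had at most 9.12 M fragments, against at least 10.96 M elsewhere, and 16.9 to 25.2% of TPM in ribosomal protein genes, against 31.3 to 38.3%. In those 6 libraries 205 to 215 members reached 1 TPM, against 150 to 192 in the others, and the members took 0.560 to 0.747% of TPM, against 0.249 to 0.389%. Median changes with auxin were therefore also read within each replicate series. The main fit has no term for the series in the TOP-2 strain. Some values of both strains are also given without those libraries. In whole worms, fewer cells of a type and less RNA per cell cannot be told apart.

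After 120 min of auxin the median change at the left end of X was lower than that of the rest of X in the TOP-1 strain. In the TOP-2 and DPY-27 strains it was closer to that of the rest of X. In the TOP-1 strain the members' median log2 change was 0.045, against 0.24 for the rest of X and 0.008 for the autosomes. The members' quartiles were -0.36 and 0.34, against -0.07 and 0.57 for the rest of X, so their changes went in both directions. The medians of the 2 replicate series were -0.007 and 0.026 for the members and 0.18 and 0.30 for the rest of X. The members thus lay 0.19 and 0.27 log2 units below the rest of X in the 2 series, on the log2(scaled TPM + 1) scale used throughout. The standard deviation of this difference between the 2 series was 0.058. Pooled over 9 comparisons it was 0.033, but comparisons of the same strain share their libraries without auxin. In the TOP-2 strain the medians were 0.18 for the members, 0.21 for the rest of X and -0.033 for the autosomes. The members' 2 series gave 0.17 and 0.13, so both were above 0. The rest of X gave 0.22 and 0.18, so the members lay 0.046 below it in each series. In the DPY-27 strain the medians were 0.12, 0.12 and -0.032. In CA1200 they were 0.004, 0.020 and -0.003.

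**Figure D1:**
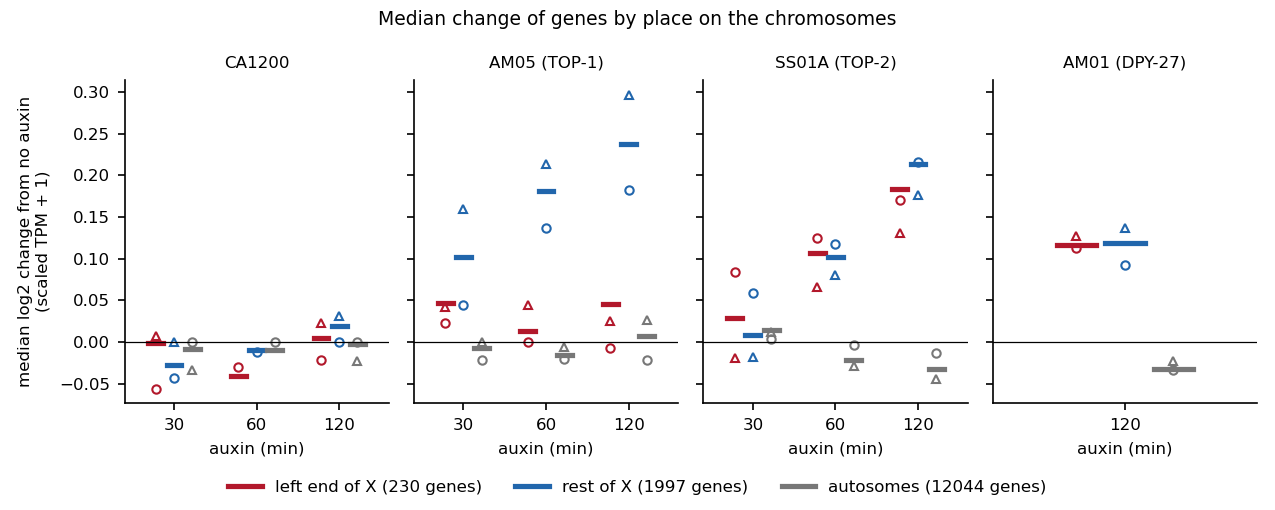
Median log2 change from no auxin (y axis, log2 of scaled TPM + 1) by minutes of auxin (x axis) in each strain, for the left end of X (red), the rest of X (blue) and the autosomes (grey). Bars are medians of the fitted changes, circles and triangles the medians in replicate series 1 and 2. In the TOP-1 panel the red bars stay near 0 (0.045 at 120 min) while the blue ones reach 0.24, and in the TOP-2 and DPY-27 panels red and blue lie together above grey at 120 min.

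The gap in the TOP-1 strain was already present at the earlier times. The members' median was 0.047 at 30 min and 0.014 at 60 min, against 0.10 and 0.18 for the rest of X. CA1200 had -0.002 and -0.040 at these times for the members and -0.028 and -0.009 for the rest of X. At 30 min the TOP-1 gap was -0.022 in one series and -0.12 in the other, so at that time it was not clear of the spread. In the TOP-2 strain the members' median was higher at each later time, with 0.029 at 30 min, 0.11 at 60 min and 0.18 at 120 min, beside 0.009, 0.10 and 0.21 for the rest of X. The 3 times share their libraries without auxin. Measured beyond the change in CA1200, the 120 min medians of the members were 0.034 in the TOP-1 strain, 0.13 in the TOP-2 strain and 0.12 in the DPY-27 strain. The rest of X had 0.22, 0.20 and 0.097.

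Members were also counted by direction. A positive 120 min change was found for 55.7% of members in the TOP-1 strain, 72.2% in the TOP-2 strain, 62.2% in the DPY-27 strain and 50.4% in CA1200. For the rest of X these shares were 70.2, 76.2, 65.5 and 52.7%, and for the autosomes 50.7, 45.3, 44.6 and 49.1%. In the TOP-1 strain 73 members (31.7%) were up in both replicate series and 72 (31.3%) down in both, where the background over all tested genes was 37% and 32.5%. Of the rest of X, 51.6% were up in both series and 16.8% down in both. In the TOP-2 strain 99 members (43.04%) were up in both series, against a background of 26.3%, and in the DPY-27 strain 105 (45.7%), against 25.4%. For the rest of X these shares were 52.9% and 43.3%. Down in both series in the TOP-2 strain were 15.2% of members and 8.11% of the rest of X. The TOP-2 and DPY-27 changes were both positive in 120 of the 230 members (52.2%), close to the 54.98% of the rest of X and above the 26.1% of autosomal genes. The change in the TOP-1 strain exceeded that in the TOP-2 strain in 87 members (37.8%), against 52.8% of the rest of X.

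Position along X was read in intervals. Cut into 18 intervals of 1 Mb, X had its lowest median in the TOP-1 strain at 120 min in the first interval (0.03) and its next lowest in the second (0.08). Set against only the last 2 Mb of X, the members' median was lower by 0.12, and against X from 2 to 4 Mb by 0.18. The 15th interval had 0.09, close behind the first 2, and the 9th interval had the highest median, 0.40. In the TOP-2 strain the first and second intervals had 0.17 and 0.20 and ranked 4 and 8 of 18 from the lowest. In the DPY-27 strain they had 0.11 and 0.13 and ranked 6 and 12. Autosomal intervals of the same length with at least 30 genes numbered 84. In the TOP-1 strain these ranged from -0.50 to 0.51, and 58 lay below the members' median. In both other degron strains all 84 lay below it, at -0.14 to 0.09 for TOP-2 and -0.13 to 0.112 for DPY-27. The members' median covers 2 Mb, however, and each autosomal interval 1 Mb. In the DPY-27 strain the first 1 Mb interval of X (0.108) was below the highest autosomal interval (0.112).

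**Figure D2:**
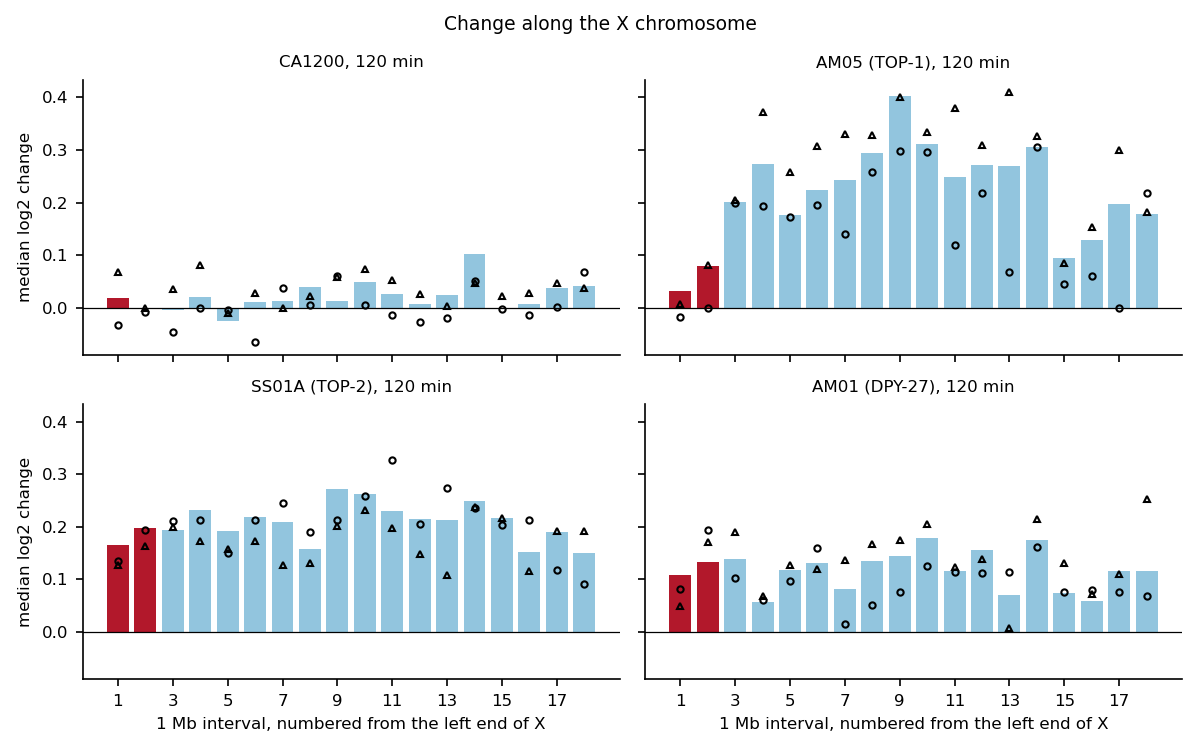
Median log2 change after 120 min of auxin (y axis) in 1 Mb intervals of X numbered from its left end (x axis), 1 panel per strain. Bars are medians of the fitted changes, red for the left end and light blue elsewhere, and circles and triangles are replicate series 1 and 2. In the TOP-1 panel the first 2 bars (0.03 and 0.08) are the lowest of 18, and in the TOP-2 and DPY-27 panels they stand among the others.

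Among the 8 intervals of 250 kb at the left end of X, the first had the lowest fitted median in the TOP-1 strain at each time. The 29 members that start in the first 250 kb had median log2 changes of -0.25 at 30 min, -0.31 at 60 min and -0.31 at 120 min. The medians in the 2 series at 120 min were -0.22 and -0.04. In the second series 2 other intervals were slightly lower, both at -0.06. Of these 29 genes, 15 were down in both series and 2 were up in both, beside 32.5% and 37% of all tested genes. In the other 7 intervals of 250 kb the medians were between -0.03 and 0.16, and the other 201 members together had 0.06. In CA1200 the fitted median of these 29 genes was 0.00 at 30 min, -0.22 at 60 min, where there was 1 auxin library, and 0.02 at 120 min, so the value at 60 min was also below 0 in the control. At 120 min it was 0.05 in the TOP-2 strain, where the 2 series had -0.23 and 0.10, and 0.04 in the DPY-27 strain. Of the 29 genes, 12 are pseudogenes, non-coding or unmatched, and their median level was 2.16 scaled TPM, against 6.29 for the other members. The 250 kb boundary was chosen after the values were seen. Without these genes the members were still 0.18 log2 units below the rest of X at 120 min.

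**Figure D3:**
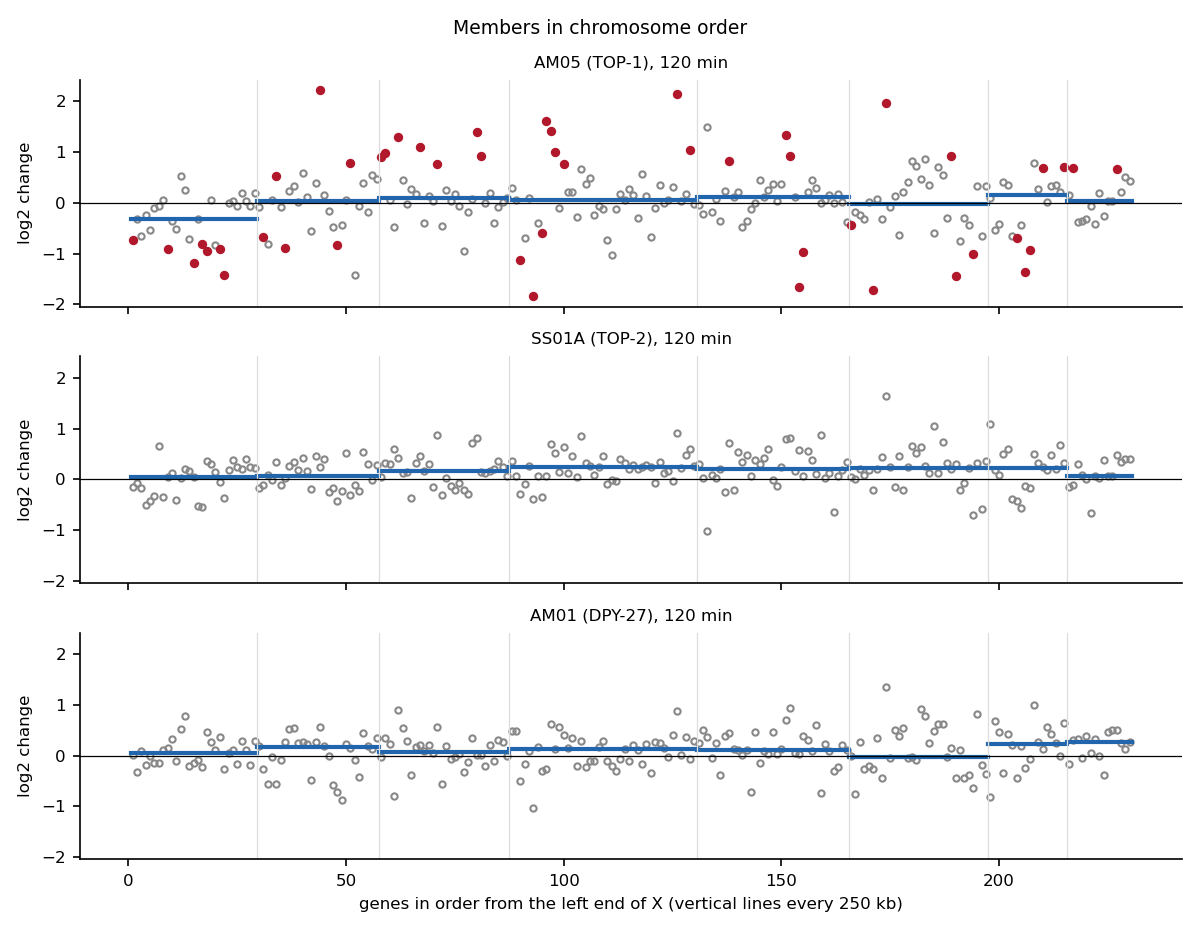
Log2 change after 120 min of auxin (y axis) of the 230 members in chromosome order (x axis), with a panel for each degron strain. Filled red points passed an adjusted p of 0.05 with the replicate block, grey open points did not, and blue bars are medians of 250 kb intervals. The DPY-27 strain has no block term of its own, since its stage term already separates its series. Red points occur in the TOP-1 panel only, and its first interval has a median of -0.31.

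Gene by gene, with limma and adjustment over all 14271 genes, 1 member rose and 1 fell in the TOP-1 strain at 120 min at an adjusted p below 0.05, where 0.827% of all genes rose and 1.11% fell (1.94% in either direction). The protocols split worms between auxin and control plates, but the labels do not say that a replicate number marks 1 culture, so the pairing also rests on same-numbered libraries deviating together. With the replicate series as a block, 25 members rose (10.9%) and 22 fell (9.57%). The background with the block was 11.4% higher and 11.5% lower. Of the rest of X, 18.1% rose and 3.56% fell with the block, and of the autosomes 10.34% rose and 12.9% fell. At 60 min 1 member rose and none fell, against backgrounds of 0.147% and 0.455% (0.603% together). The block gave 19 and 14 then, against 6.59% and 8.07%. At 30 min none passed, against a background of 0.00701% lower, 11 had an unadjusted p below 0.05 (background 6.45%), and the block called 2 higher and 2 lower, against 1.74% and 3.15% (4.89% together).

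F28C10.3 (531885 to 535835), a gene of no annotated role here, rose in the TOP-1 strain. Its levels without auxin were 1.26 and 1.53 scaled TPM in the 2 series, then 6.01 and 5.37 at 30 min, 4.63 and 5.10 at 60 min and 4.51 and 5.23 at 120 min. All 6 auxin libraries were above both controls. The 120 min log2 change was 1.295 ± 0.24 (SE, adjusted p = 0.017 in limma). It was not confined to that strain. CA1200 had 2.03 and 1.65 without auxin and 4.52 and 7.01 at 30 min, and with the block F28C10.3 was the single member called there (background 0.0911% higher). The DPY-27 strain went from 2.49 and 2.37 to 5.002 and 5.84. The TOP-1 change beyond that of CA1200 was 0.56 and did not pass. The call was also lost when any 1 of the 4 TOP-1 libraries was left out, with adjusted p between 0.084 and 0.11, and with TPM as deposited, at 0.92.

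Y73B3A.3 (84042 to 93664), annotated as a pseudogene, fell in the TOP-1 strain. Its levels were 1.45 and 1.41 scaled TPM without auxin, 0.780 and 0.686 at 30 min, 0.712 and 0.531 at 60 min and 0.213 and 0.393 at 120 min. The auxin libraries lay below both controls at every time, and the 120 min log2 change was -0.90 ± 0.22 (SE, adjusted p = 0.048 in limma). CA1200 had 1.79 and 1.83 without auxin and 1.75 and 1.95 at 120 min. The TOP-2 strain had 1.41 and 2.30 before and 1.54 and 2.38 after, and the DPY-27 strain 3.74 and 4.99 before and 3.80 and 6.28 after. These are levels near 1 scaled TPM, and the call was lost when any 1 TOP-1 library was left out (adjusted p 0.11 to 0.35), with a pseudocount of 5, with TPM as deposited, with autosomal scaling, with a minimum of 5 TPM and without the mixed-stage libraries.

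**Figure D4:**
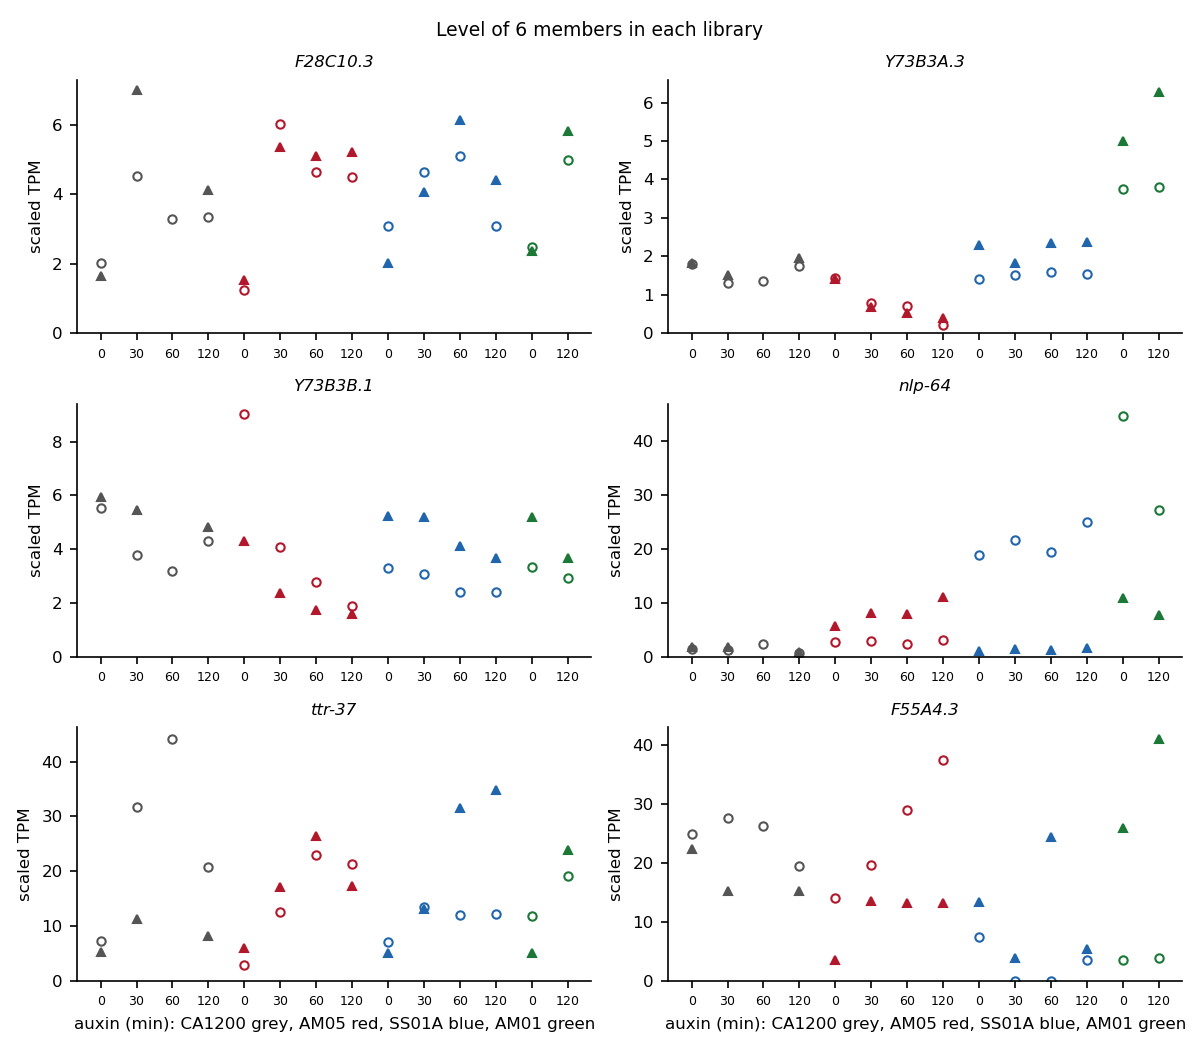
Level in scaled TPM (y axis) of 6 members in every library by strain and minutes of auxin (x axis). Open circles are replicate series 1 and filled triangles series 2. Y73B3A.3 and Y73B3B.1 go down with time in the TOP-1 strain (red), and F28C10.3 and ttr-37 are above the control of their own series in the auxin libraries of all 4 strains.

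The test of the difference between strains asks whether a change in a degron strain went beyond that of CA1200. No member passed it in any strain without the block. In the TOP-1 strain 4 members had an unadjusted p below 0.05 (background 3.24%), in the TOP-2 strain 2 (0.757%) and in the DPY-27 strain none (0.932%). With the block 1 member rose (0.43%) and 2 fell (0.87%) beyond CA1200 in the TOP-1 strain, not above the backgrounds of 0.554% and 1.2%. The gene that rose was the neuropeptide-like gene nlp-64, by 1.06 (adjusted p = 0.039). It went from 2.66 and 5.65 scaled TPM to 3.19 and 11.1 in the TOP-1 strain, while CA1200 went from 1.43 and 1.87 to 0.733 and 0.917. Those that fell were Y73B3A.3, by 0.92 (adjusted p = 0.039), and Y73B3B.1, by 1.14 (adjusted p = 0.041). Y73B3B.1 (209107 to 211241) had 9.03 and 4.32 without auxin, 4.09 and 2.38 at 30 min, 2.78 and 1.73 at 60 min and 1.88 and 1.60 at 120 min. Both series went down at every step. In CA1200 it had 5.55 and 5.95 without auxin and 4.29 and 4.82 at 120 min. Both genes that fell lie in the first 250 kb. That interval was chosen after its values were seen, and these genes are among its members, so their place is not a separate result.

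With the block, 7 of the 29 members of the first 250 kb fell in the TOP-1 strain at 120 min and none rose, beside 11.5% and 11.4% of all tested genes, in a set chosen after its values were seen. They were CE7X_3.1, Y73B3A.3, Y73B3A.10, T08D2.2, T08D2.4, T08D2.8 and Y73B3B.1, with log2 changes between -1.42 and -0.73. T08D2.8 went from 1.96 and 1.26 scaled TPM to 0.346 and 0.401 at 120 min. Y73B3A.10 went from 2.997 and 3.16 to 0.554 and 1.09, and the pseudogene T08D2.2 from 2.82 and 3.59 to 1.19 and 1.65. In each of these 3 genes both series were lower after auxin. T08D2.4 was listed at 0 in all 6 auxin libraries of the strain and at 0.636 and 1.27 without auxin. Over the other 201 members, 25 rose and 15 fell with the block, against the same background.

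The members with the largest positive changes in the TOP-1 strain, among those at a mean of at least 5 scaled TPM and with the same sign in both series, were C44C1.6, ttr-37, F25E2.2, F55A4.3 and F25E2.3. C44C1.6 went from 2.85 and 0.888 scaled TPM to 15.7 and 7.45, a log2 change of 2.14 (adjusted p = 0.34, with the block 0.0011). ttr-37, of the transthyretin-related family, went from 2.83 and 5.93 to 21.3 and 17.2 (log2 change 1.97, adjusted p = 0.11, with the block 0.0087). F25E2.2 and its neighbour F25E2.3 had log2 changes of 1.62 and 1.42 and rose with the block (adjusted p = 0.0074 and 5.5e-04). F55A4.3 did not pass either fit. R04A9.9 and C05D9.9, chosen after their values were seen, rose with the block by 2.22 and 1.33.

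The most negative changes by the same rule belonged to nas-15, H42K12.3, W05H7.1, abu-12 and wrt-9. nas-15, of the astacin metalloprotease family, had 13.5 and 19.6 scaled TPM without auxin and 0.552 and 14.04 at 120 min (log2 change -1.84, with the block adjusted p = 0.027). H42K12.3 went from 46.8 and 618 to 11.1 and 227 (-1.71, with the block 0.0045). Both were lower with auxin in each series. For nas-15 most of the change was in the first series, and for H42K12.3 the levels differed more between the series than with auxin. W05H7.1 went from 14.1 and 15.8 to 5.41 and 4.34 (-1.45, with the block 5.4e-04), and in CA1200 from 9.46 and 14.4 to 5.69 and 5.84 (-0.91, with the block 0.040). abu-12 had 29.1 and 56.6 before and 3.79 and 50.2 after (-1.41) and did not pass. Leaving out 1 library moved the log2 change of H42K12.3 between -3.83 and 0.41 and that of abu-12 between -3.12 and 0.30. It moved nas-15 between -3.48 and -0.20 and wrt-9 between -2.68 and -0.03.

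Long members had negative median changes in the TOP-1 strain, and at the earlier times in CA1200 as well. Among the 20 members of at least 7742 bp, the median log2 change was -0.37 at 30 min, -0.38 at 60 min and -0.40 at 120 min. In CA1200 it was -0.15 at 30 min, -0.40 at 60 min and 0.00 at 120 min, so at 60 min the control was as low. Genes of the rest of X at least as long (207) had 0.09 in the TOP-1 strain at 120 min, and those of the autosomes (1201) had -0.51. Of the 20 members, 13 were down in both series at 120 min, and with the block 6 (30%) fell and 1 rose, against 11.5% and 11.4% of all tested genes. With the block 3.86% of the long genes of the rest of X and 45.3% of the long autosomal genes fell. The members' median at 120 min was 0.07 in the TOP-2 strain and 0.13 in the DPY-27 strain. The 5 longest were R193.2 (15346 bp), wrt-9 (14262 bp), H11E01.3 (14246 bp), tmc-1 (14023 bp) and K06A9.1 (13055 bp), and the first 4 fell with the block. R193.2 went from 3.03 and 7.68 scaled TPM to 0.447 and 1.41 at 120 min. The hedgehog-related gene wrt-9 went from 17.1 and 49.9 to 3.74 and 28.8. H11E01.3 went from 42.3 and 28.2 to 20.96 and 14.96. The transmembrane channel-like gene tmc-1 went from 16.4 and 9.34 to 7.50 and 4.56. K06A9.1 went from 28.5 and 12.7 to 12.6 and 11.2 and did not pass. In CA1200 the 120 min log2 change of these 5 genes lay between -0.39 and 0.49.

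Changes were also read by span and by level. The tested genes were cut into 4 classes of equal size by span, with limits at 1382, 2393 and 4321.5 bp. The members' medians in the TOP-1 strain at 120 min were 0.05, 0.13, 0.06 and -0.03 from the shortest class to the longest. The rest of X had 0.40, 0.26, 0.25 and 0.15, and the autosomes 0.17, 0.12, 0.00 and -0.31. The members were thus below the rest of X in each span class, and above the autosomes in the longest. By level, the 117 members below 5 scaled TPM had a median of 0.02, the 76 between 5 and 20 had 0.12 and the 34 between 20 and 100 had -0.06. The rest of X had 0.25, 0.24 and 0.19 in those classes.

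**Figure D5:**
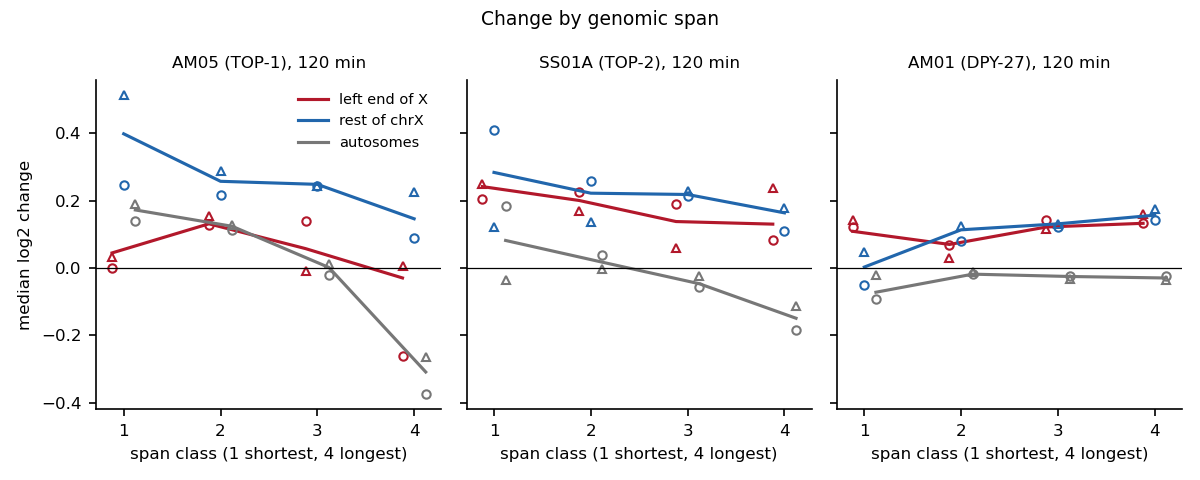
Median log2 change after 120 min of auxin (y axis) by class of genomic span (x axis, 1 shortest, 4 longest) for the left end of X (red), the rest of X (blue) and the autosomes (grey). Lines join medians of the fitted changes, and circles and triangles are replicate series 1 and 2. In the TOP-1 panel the members (0.05, 0.13, 0.06 and -0.03) lie below the rest of X in each class, and the autosomes reach -0.31 in the longest.

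In the TOP-2 strain no member passed the test at 30, 60 or 120 min, with or without the block. The background with the block was 0.021% at 30 min, 0.00701% at 60 min and 0 at 120 min. At an unadjusted p below 0.05 there were 6 members (background 1.65%). Y73B3A.20, F13C5.1, F56F10.2, the eIF4E gene ife-4 and ttr-37 were higher, and C46H3.3 was lower. Their log2 changes were 0.66, 0.88, 0.86, 0.59, 1.64 and -0.65. F56F10.2 had 6.52 and 3.70 scaled TPM before and 10.8 and 8.85 after. ttr-37 had 6.96 and 5.08 before and 12.2 and 34.8 after. The largest changes by the rule were those of ttr-37, F09E10.7 (1.09), C44C1.6 (0.91), F56F10.2 and the LAMP family gene lmp-2 (0.82). The lowest were those of F55A4.3 (-1.02), the TMED family gene tmed-12 (-0.53), the ETS family gene elk-2 (-0.41), nas-15 (-0.39) and K06A9.1 (-0.38). Over all members the quartiles of the change were -0.03 and 0.35, and 72.2% of members had a positive change. Without TOP-2 replicate 1, which leaves series 2 alone, the members' median lay 0.17 above that of the autosomes, against 0.22 with it.

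In the DPY-27 strain no member passed either, where 0.0491% of all genes did. Again 6 members had an unadjusted p below 0.05 (background 1.53%), all of them higher at 120 min. They were Y73B3A.11 (0.78), F28C10.3 (0.90), ttr-37 (1.35), F19G12.4 (0.92), H11E01.2 (1.003) and F07G6.10 (0.64). ttr-37 had 11.8 and 4.99 scaled TPM before and 19.1 and 23.9 after. H11E01.2 had 12.6 and 7.51 before and 15.4 and 27.3 after. By the rule, ttr-37 and H11E01.2 were followed by lmp-2 (0.95), D1005.4 (0.82) and F19G12.8 (0.79), and the lowest were F09E10.7 (-0.83), B0310.6 (-0.81), pfn-3 (-0.73), ZK1193.3 (-0.71) and ZK1193.2 (-0.57). The median of the members lay above that of the autosomes by 0.15 in each of the 2 series, although one was L2/L3 and the other mixed-stage. Leaving out replicate 1 leaves the mixed-stage series alone and so adds no further value.

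CA1200 had few changes of its own at 120 min. No member passed, 6 had an unadjusted p below 0.05 (background 4.72%), and with the block vpat-1 rose and W05H7.1 and H02F09.3 fell, against backgrounds of 1.29% and 0.953% (2.24% together). vpat-1 went from 6.47 and 2.40 scaled TPM to 13.1 and 7.30. By the rule the highest changes were those of vpat-1 (1.10), ttr-37 (0.98), T19D7.6 (0.98), H11E01.2 (0.76) and nas-38 (0.66), and the lowest those of F09E10.1 (-1.39), D1005.2 (-1.33), H02F09.3 (-1.16), F56C3.8 (-1.01) and R57.2 (-0.995). ttr-37, among the highest in all 4 strains, had 31.7 and 11.3 at 30 min and 44.2 at 60 min in CA1200, from 7.18 and 5.30 without auxin.

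Gene symbols were also grouped by a list of prefixes, which takes up only part of each class. Of the 7 channel, receptor and transporter genes with a listed prefix, 2 rose after 120 min in the TOP-1 strain when blocked and 1 fell (background 11.4% and 11.5%). The ABC transporter gene mrp-2 rose from 10.8 and 6.45 to 25.7 and 14.3 scaled TPM (log2 change 1.11, adjusted p = 0.0034). The ligand-gated channel gene lgc-32 rose from 1.21 and 1.31 to 4.13 and 2.56 (0.92, adjusted p = 0.0043), and the receptor gene npr-11 fell (-0.43, adjusted p = 0.045). Neither the receptor genes npr-19 and dop-4 nor unc-1 and mrp-1 passed at 120 min, and mrp-1, which lies beside mrp-2, was lower at 60 min with the block (-0.59, adjusted p = 0.048). Of channel and receptor genes outside the prefixes, tmc-1 and the receptor gene gtr-1 fell with the block in the TOP-1 strain (-0.96 and -0.60, adjusted p = 0.0061 and 0.031), and the potassium channel gene irk-2 did not pass (-0.09). In the TOP-2 strain all 7 had positive changes, with a median of 0.15, and in the DPY-27 strain 4 did. Among the 6 homeobox and helix-loop-helix genes with a listed prefix, ceh-93, hlh-19, lim-6, ceh-41, ceh-21 and ceh-39, 2 were positive in the TOP-1 strain (median -0.34), 5 in the TOP-2 strain and 4 in the DPY-27 strain, and none passed at 120 min. The homeobox genes pha-2 and dve-1, outside the prefixes, had 0.17 and 0.06 in the TOP-1 strain and did not pass. ceh-93 rose at 60 min with the block (0.93, adjusted p = 0.0030). ceh-39 codes for an X signal element used to count X chromosomes, and its log2 changes were -0.41 with TOP-1, 0.06 with TOP-2 and 0.32 with DPY-27 as the tagged protein.

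Several well-studied genes of the region, named after their values were seen, did not pass at 120 min in any strain. In the order TOP-1, TOP-2, DPY-27, the presenilin gene sel-12 had log2 changes of 0.06, 0.32 and 0.12, and the SMAD gene daf-3 had -0.09, 0.14 and 0.57. pdk-1, a kinase of insulin signalling, had 0.09, 0.20 and 0.35. dve-1, a factor of the mitochondrial stress response, had 0.06, 0.51 and 0.23. The Argonaute gene nrde-3 had 0.58 in the TOP-1 strain at 120 min and rose at 60 min with the block (0.72, adjusted p = 0.037). None of the 20 listed dosage compensation genes lies at the left end of X. Of the 19 tested, none passed in any comparison. With the block 4 fell in the TOP-1 strain at 120 min, where 11.5% of all tested genes did. They were dpy-27 (-0.57), dpy-28 (-1.08), mix-1 (-0.49) and dpy-21 (-1.69).

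Without auxin, the members of the TOP-1 strain had the same median level as in CA1200 (median log2 difference 0.00, the rest of X -0.010), those of the TOP-2 strain differed by 0.051 (rest of X -0.018) and those of the DPY-27 strain were higher by 0.44 (rest of X 0.39, autosomes -0.031). The fitted DPY-27 difference is that of L2/L3 larvae. Replicate 1 without auxin weighs most in it. The stage term is shared by both times, so the other libraries of the strain enter it as well. No member passed in the TOP-1 strain (8 at an unadjusted p below 0.05, background 3.08%) or the TOP-2 strain (15, background 6.28%). In the DPY-27 strain 1 did, against a background of 0.392% higher and 0.0841% lower. This was unc-96, a component of the muscle M-line (611118 to 621290), with 49.6 and 26.1 scaled TPM against 14.02 and 21.4 in CA1200, a log2 difference of 1.48 ± 0.29 (SE, adjusted p = 0.045 in limma). Both its DPY-27 libraries were above both CA1200 libraries. Leaving out any 1 of the 4 libraries ended this call.

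The largest differences from CA1200 without auxin by the rule did not pass in limma. In the authors' deposited tables nas-15 and B0294.1 were called higher in all 3 degron strains without auxin, with log2 fold changes of 4.55, 4.61 and 5.24 for nas-15 and 2.95, 4.18 and 4.85 for B0294.1 in the order TOP-1, TOP-2, DPY-27. nas-15 had 0.465 and 0.973 scaled TPM in CA1200 and was higher in every library of the degron strains, at 47.7 and 7.41 (DPY-27), 34.2 and 1.69 (TOP-2) and 13.5 and 19.6 (TOP-1). For B0294.1 the CA1200 libraries had 1.87 and 2.33, those of the DPY-27 strain 72.6 and 37.7, of the TOP-2 strain 64.3 and 4.44 and of the TOP-1 strain 18.95 and 13.2. The lipocalin-related gene lpr-7 was high in the TOP-1 strain and F13C5.5 in both others. F56C3.8, at 268 and 102 in CA1200, had 9.05 and 51.8 in the DPY-27 strain, 2.57 and 112 in the TOP-2 strain and 61.2 and 52.9 in the TOP-1 strain. F55A4.3, the calcium sensor gene ncs-1, F09E10.1 and M02E1.3 were the others that were low by the rule. For the last 2 genes named, the level in TOP-2 replicate 2 (13.1 and 8.41) lay within the range of CA1200, while replicate 1 had 0 and 0.736.

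Marker genes of other tissues and stages also differed between libraries. Pharynx markers summed to 47.3 and 59.4 scaled TPM in the 2 TOP-1 libraries without auxin and 26.3 and 69.0 at 120 min. CA1200 ranged from 21.8 to 32.4 over all times. The higher library of each TOP-2 group had 307.9 to 390.0, and the lower one only 30.8 to 33.4. DPY-27 libraries were split likewise, at 58.9 against 441.1 without auxin and 45.3 against 420.2 after 120 min. These high sums were thus not shared by both libraries of a group. Hypodermis and seam markers summed to 2218 and 7953 in the TOP-1 libraries without auxin and 1525 and 7751 at 120 min. The CA1200 libraries without auxin had 2118 and 3322. Intestine markers summed to 2845 and 13312.5 in the CA1200 libraries at 30 min. Body wall muscle markers summed to 3029 and 9883 in the TOP-2 libraries without auxin. Neuron markers varied less, from 461 to 749 over all libraries, and oocyte and embryo markers from 70.9 to 134.2. Germline markers summed to 14.5 to 24.0 in CA1200 without auxin and 18.99 to 88.6 in the degron strains. Sperm markers summed to at most 0.9 and adult markers to at most 3.4 in any library. The part of these markers in the results was not tested.

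In the authors' deposited tables of fold changes, the members' median log2 fold change in the TOP-1 strain at 120 min over no auxin was 0.06, against 0.31 for the rest of X and -0.02 for the autosomes. For the TOP-2 strain the authors' deposited table gave 0.18, 0.24 and -0.08. In the authors' deposited table for the TOP-1 strain at 120 min, ttr-37 (2.06) and F28C10.3 (1.75) were called higher and W05H7.1 (-1.64) and Y73B3A.3 (-2.76) lower, where 1.4% and 2.03% of all genes were. The authors' deposited table for the DPY-27 strain over CA1200 without auxin gave a median of 0.59 for the members and 0.53 for the rest of X, with 23 members higher and 1, F56C3.8, lower (backgrounds 4.86% and 1.54%).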

How the data were processed

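Poly(A) RNA libraries were made with dUTP strand marking, per the labels' protocols. Per the submitters' processing notes, the tools were DESeq2 1.30.0, Cufflinks 2.2.1, HTSeq 0.13.5, HISAT2 2.2.1 and CASAVA 1.8, with no role given. The deposited library files hold FPKM and TPM per gene, per the file headers. The authors' deposited tables hold log2 fold changes, p-values, test scores and a mean signal.

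TPM was scaled by median ratios over the 12832 genes above 0 in every library, and log2(scaled TPM + 1) was fitted with limma 3.58.1 in R 4.3.3 (trended variance, 1 mean per strain and time, a mixed-stage term), with Benjamini-Hochberg adjustment over 14271 genes and a threshold of 0.05. The fit without the block was also run on simulated data with independent noise in each library. That simulation did not hold the shared deviations of same-numbered libraries given below, so it does not test their effect. Depth was estimated from FPKM steps. Worms of a series were split between auxin and control plates, per the labels' protocols, and same-numbered libraries deviated together (correlations 0.38 to 0.90), so the replicate number was also used as a block within each strain. Whether the numbers mark separate cultures is not stated. p-values then measure the spread between these libraries.

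Named genes were the members called at 120 min, the 5 highest and 5 lowest 120 min changes per strain (both series of 1 sign, mean of at least 5 scaled TPM), the 10 most abundant, the 3 highest and 3 lowest differences from CA1200 without auxin, the 5 longest and the 2 on each side of the boundary. Members and lists were chosen with earlier results of these data known. A motif search was not run. Alternatives are given in the closing section.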

Additional observations from a re-analysis of the deposited data

Results flagged for a closer look

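For 8 of the named genes both replicate series moved one way at 120 min in one degron strain and the opposite way in another. None of these differences between strains was tested, and the values below are log2 changes from no auxin. F55A4.3 had 1.51 in the TOP-1 strain, -1.02 in the TOP-2 strain and 0.37 in the DPY-27 strain. W05H7.1 had -1.45, 0.31 and -0.44 in the same order. The pseudogene Y73B3A.3 had -0.90 in the TOP-1 strain, 0.054 in the TOP-2 strain and 0.15 in the DPY-27 strain. F25E2.2 had 1.62 in the TOP-1 strain and -0.27 in the DPY-27 strain. F09E10.7 had 1.09 in the TOP-2 strain and -0.83 in the DPY-27 strain. K06A9.1, one of the longest members, had -0.65 in the TOP-1 strain, -0.38 in the TOP-2 strain and 0.21 in the DPY-27 strain. F09E10.1 had -0.53 in the TOP-1 strain and 0.68 in the DPY-27 strain, and F56C3.8 had -0.63 and 0.39. Leaving out 1 library reversed the TOP-2 change of K06A9.1.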

How the results depend on the processing

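For 36 medians and counts of the left-X genes, 736 alternative values were computed, of which 611 kept within the spread between replicates or, for counts, within 1.5 times. Most counts held no gene in the main fit, and those that stayed so were scored as kept. The spread was that of changes with auxin within strains, used also for differences between strains, where it does not measure the spread between strains. For the TOP-1 strain at 120 min, all 23 settings run put the left-X median below that of the rest of X, by 0.11 to 0.26. The left-X median was above the autosomes in all 22 settings for the TOP-2 strain (0.089 to 0.26) and the DPY-27 strain (0.046 to 0.18), and in all but 2 of 21 for the TOP-1 strain. Counts of called genes depended most on the fit, and the estimated depth, at 5.50 M fragments in the shallowest library, limits all genes at low TPM. Unless stated, the values below are the difference in median log2 change between the left end and the rest of X, and the cause of each shift was not tested.

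With the replicate block the genes called numbered 47, 33 and 4 in the TOP-1 strain at 120, 60 and 30 min, 3 for the TOP-1 change beyond CA1200, and 3 and 1 in CA1200 at 120 and 30 min. The block changed no other count, and it was not used between strains, since it removes the spread between cultures that such a comparison needs. For fits other than the main one and the block, the share of all genes called was not computed. The counts below therefore describe the fits and are not read as a result about the left end. With array weights 4 genes were called in the TOP-1 strain at 120 min, 4 at 60 min and 1 at 30 min, 1 in CA1200 at 120 min, 1 at 30 min, 1 in the DPY-27 strain at 120 min and 87 for the DPY-27 strain against CA1200 without auxin. For that last comparison the count was 61 with the compared strains alone, 13 with a pseudocount of 5, 5 with no filter on low values, 2 with autosomal scaling, 2 with starts below 3000000, and 0 with FPKM, TPM as deposited, a minimum of 5 TPM, a pseudocount of 0.1, no mixed-stage libraries or no DPY-27 replicate 1. In the TOP-1 strain at 120 min it was 0 with TPM as deposited and 1 with autosomal scaling, a pseudocount of 5 or no mixed-stage libraries. At 60 min it was 0 with TPM as deposited, the compared strains alone, no filter, a pseudocount of 5 or no mixed-stage libraries, and 2 with starts below 3000000.

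A pseudocount of 0.1 gave -0.26, -0.22 and -0.091 in the TOP-1 strain at 120, 60 and 30 min and -0.23 beyond CA1200. A pseudocount of 5 gave -0.11 and -0.087 at 120 and 60 min, -0.10 beyond CA1200, and without auxin -0.027 in the DPY-27 and 0.032 in the TOP-2 strain. Against the autosomes it gave 0.090 in the DPY-27 and 0.11 in the TOP-2 strain at 120 min. With no filter the values were -0.11 in the TOP-1 strain at 60 min, -0.063 in the TOP-2 strain at 120 min, and without auxin -0.013 in the DPY-27 and 0.00038 in the TOP-2 strain. Against the autosomes they were 0.046 in the DPY-27 and 0.089 in the TOP-2 strain. TPM as deposited gave -0.046 for DPY-27 and 0.033 for TOP-2 without auxin. A minimum of 5 TPM gave 0.088 against the autosomes in the TOP-1 strain at 120 min and -0.039 without auxin. Genes averaging at least 5 scaled TPM gave -0.13 in the TOP-1 strain at 60 min, -0.096 beyond CA1200 and 0.14 against the autosomes at 120 min. They gave -0.058 and -0.021 in CA1200 at 120 and 30 min, -0.0019 for the TOP-2 strain beyond CA1200, and without auxin -0.048 for TOP-1, -0.016 for TOP-2 and -0.021 for DPY-27.

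Against the right end of X the values were -0.12 and -0.10 in the TOP-1 strain at 120 and 60 min, -0.092 beyond CA1200, 0.035 in the TOP-2 strain at 120 min, 0.0069 in CA1200 at 60 min, and without auxin 0.13 in the TOP-2 and 0.11 in the DPY-27 strain. Against X from 2 to 4 Mb and without auxin they were 0.11 for TOP-2 and 0.12 for DPY-27. Starts below 1000000 gave -0.11 in the TOP-1 strain at 30 min, -0.058 in the DPY-27 strain beyond CA1200, and without auxin 0.19 in the TOP-2 and 0.23 in the DPY-27 strain. Starts below 3000000 gave -0.15 and -0.11 in the TOP-1 strain at 120 and 60 min, -0.098 beyond CA1200, 0.080 against the autosomes at 120 min, and without auxin 0.022 in the TOP-2 and -0.020 in the DPY-27 strain. Without the first 250 kb, chosen after seeing the data, they were -0.11 at 60 min and -0.12 beyond CA1200 in the TOP-1 strain. Without the mixed-stage libraries the DPY-27 value without auxin was 0.0019. Leaving out the series that stood apart was also chosen after seeing the data. Without DPY-27 replicate 1 that value was -0.0058, and F55A4.3 and M02E1.3 turned to 0.13 and 0.77. Without TOP-2 replicate 1 the TOP-2 median against the autosomes at 120 min was 0.17, and F09E10.1 without auxin turned to 0.24.

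Leaving out 1 library at a time gave -0.23 to -0.21 in the TOP-1 strain at 120 min, -0.22 to -0.16 at 60 min, -0.10 to -0.086 at 30 min, -0.24 to -0.12 beyond CA1200 and -0.044 to 0.098 against the autosomes. No gene was then called in the TOP-1 strain at 120 or 60 min or for the DPY-27 strain without auxin (0 to 0). The TOP-2 values were -0.038 to 0.018 at 120 min, -0.046 to 0.044 at 60 min, -0.11 to 0.015 beyond CA1200, 0.19 to 0.26 against the autosomes and 0.035 to 0.098 without auxin. The DPY-27 values were -0.029 to 0.053 beyond CA1200 and -0.014 to 0.034 without auxin. Among named genes the log2 change ranged from -3.83 to 0.41 for H42K12.3 and -3.12 to 0.30 for abu-12 in the TOP-1 strain, from -0.39 to 2.21 for C44C1.6, -1.89 to 0.82 for tmed-12, -2.24 to 1.47 for nas-15 and -0.92 to 0.15 for K06A9.1 in the TOP-2 strain, from -0.11 to 1.43 for nas-38 in CA1200, and from -3.58 to 0.24 for F09E10.1 in the TOP-2 strain without auxin. A search of promoter sequences for motifs was planned and not run, since the sequences it needs were not used here.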
